A study of Arabidopsis thaliana with 6 samples.

Results

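Leaves of the Arabidopsis thaliana mutants ore15-1D and ore15-2 were set against each other, with the wild type Col used only as a point of comparison for both. All 6 arrays of the series entered: 2 of ore15-1D, 2 of ore15-2 and 2 of Col, each from its own plant sample, as the series' design text has it. Both mutants affect ORE15 (AT1G31040), a member of the plant PLATZ family of zinc-binding proteins. The allele name and the known use of the lines give ore15-1D as a dominant allele and ore15-2 as a loss-of-function allele. The labels name 1 line per allele, so that effects of an allele and of anything else its line carries cannot be told apart. No treatment was applied: plants of all 3 genotypes grew on soil for 13 days under 16 h light and 8 h dark, and leaf 3 or 4, at 4 days of age, was taken 5 h after light-on. The comparison asks which genes differ between leaves with much and with little ORE15 RNA, and whether Col lies between them.

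A young leaf grows first by cell division, then by expansion, while its cells take on photosynthesis. GRF transcription factors and their GIF co-activators keep the dividing phase going, and CDK inhibitors bring it to a close. ORE15 is known in Arabidopsis for prolonging leaf cell proliferation and delaying leaf senescence. The circadian clock runs beneath this, with morning genes such as LHY and CCA1 and day or evening genes such as PRR5, TOC1 and ELF4 repressing one another, so a leaf taken at 1 time of day shows the clock at 1 phase only.

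Levels are log2 processed signal minus the 75th percentile of the array, and differences are ore15-1D minus ore15-2 on that log2 scale, with limma's standard error (SE; 2 arrays per genotype). A gene is said to differ, to be higher or to be lower where limma's adjusted p was below 0.05. Levels of different probes are not comparable. Each mutant filled 1 slide with a Col array beside it: slide 1 carried the ore15-1D arrays with Col replicate 1, and slide 2 carried the ore15-2 arrays with Col replicate 2. Slide and mutant can therefore be separated only through the difference between the 2 Col arrays. The difference with slide as a block, given below as the slide-adjusted difference, is ore15-1D minus Col replicate 1 plus Col replicate 2 minus ore15-2. The 75th percentile of signal was 1246 and 1336 for ore15-1D, against 808 and 747 for ore15-2, with 925 and 858 for Col, and 67.8% to 73.0% of probe spots were well above background. Replicate arrays correlated at 0.994 (ore15-1D), 0.988 (ore15-2) and 0.986 (Col). Leaf genes were well above background on every array. RCA, which encodes rubisco activase, was at 7.09 and 6.92 in ore15-1D, against 8.17 and 8.38 in ore15-2, and 7.89 and 8.02 in Col. Of markers of other tissues, 3 of 12 shoot meristem, 5 of 12 floral and 12 of 16 root genes could be tested, and STM, WUS, CLV3, LFY, AP3 and AG were well above background on none of the 6 arrays.

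ORE15 was read first. Its single probe, at chromosome 1, 11069800 to 11069859 of TAIR10 in the transcript of AT1G31040, gave 2.75 and 2.66 in ore15-1D, against -6.37 and -8.44 in ore15-2, and -4.90 and -4.79 in Col. It was well above background on both ore15-1D and both Col arrays, and on ore15-2 replicate 1 but not on replicate 2. No array of one genotype overlapped another genotype, and the order was ore15-2, Col, ore15-1D. The difference was 10.11 ± 0.67 (SE; adjusted p = 0.00246), or 10.22 when adjusted for slide (adjusted p = 0.0534). The smaller step was the one between Col and ore15-2: ore15-1D minus Col was 7.55 (adjusted p = 0.00552), and Col minus ore15-2 was 2.56 (adjusted p = 0.126). After normexp background correction with quantile normalization the difference was 5.54, and 7.25 in the authors' deposited table, so its size differed between scalings. Whether ore15-2 alters the stretch under the probe was not stated in the labels.

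Of the other PLATZ genes, 6 of 11 could be tested, and 4 were lower in ore15-1D (2 without ore15-1D replicate 1, 2 without either ore15-2 array). AT1G32700 stood at -1.15 and -1.14 in ore15-1D, against 0.29 and 0.52 in ore15-2, and -0.14 and -0.02 in Col. The difference was -1.55 ± 0.11 (SE; adjusted p = 0.0026). Its Col arrays lay between the mutants, as did those of AT1G21000, which differed by -1.24 ± 0.12. AT4G17900 differed by -0.83 ± 0.21 and did not pass when any single array of either mutant was left out (adjusted p from 0.0817 to 0.118). Counted with ORE15, 1 of 7 tested PLATZ genes was higher (2 without ore15-2 replicate 1, 2 in the authors' deposited table).

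Across 20204 tested loci, 11279 differed between the mutants (55.8%): 5312 were higher in ore15-1D (26.3%) and 5967 were lower (29.5%). With a log2 difference of at least 1 as well, 1406 were higher (6.96%) and 2896 lower (14.3%). These shares are the background for the counts of higher and lower genes below that come from this fit. Every other fit has totals of its own, so its counts are not to be set against these shares. After quantile normalization, 6238 of 20204 loci were higher and 4984 lower. In brackets beside the count of a list stand the counts from fits without 1 array, after quantile normalization, after normexp and in the authors' deposited table, where they differ by over 1.5 times or from 0. Of the 152 named genes that passed, 80 had a difference over 1.5 times smaller after normexp, as did 51 of the 151 with a value in the authors' deposited table, and none had one over 1.5 times larger in either. Arrays of the mutants did not overlap at 85.3% of tested loci. The split between higher and lower followed the level of the probe: in the dimmest band (mean level under -4) 38.8% of 3209 loci were lower, and in the brightest (4 or more) 48.9% of 757, against 26.9% and 26.7% in the bands between. The median difference of the brightest band was -0.30, and 0.01 after quantile normalization. Without ore15-1D replicate 1 the test called 4983 loci, without ore15-1D replicate 2 it called 4673, and without ore15-2 replicate 2 it called 7496. With slide as a fixed block limma called 0 loci (smallest adjusted p = 0.0509), while 7487 loci (37.1%) had an unadjusted p below 0.05.

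Col lay nearer to ore15-2 than to ore15-1D for most of these genes. On a scale where the ore15-2 mean is 0 and the ore15-1D mean is 1, Col sat at a median of 0.303 over the 4302 loci with a difference of at least 1, with quartiles of 0.139 and 0.477. The median was 0.362 for the loci higher in ore15-1D and 0.267 for those lower. Read array by array, both Col arrays lay strictly between the mutants' arrays at 5087 of the 11279 differing loci (45.1%), above all 4 mutant arrays at 644 (5.71%) and below all 4 at 505 (4.48%), and the rest were not resolved. Over all tested loci the same shares were 26.8%, 8.8% and 8.23%, and 56.2% were not resolved. With ore15-1D highest, 13.2% of all tested loci were ordered, and 47.3% of the loci called higher. With ore15-2 highest, 13.6% of all tested loci were ordered, and 43.1% of the loci called lower. By means, Col lay between the mutants at 86.8% of the loci with a difference of at least 1, and at 59.7% of all tested loci. Loci chosen for a gap between the mutants hold Col inside it more often by construction. The higher shares among called loci, by arrays or by means, are therefore not read as a result about Col. Of the 2 single steps, which share the Col arrays, ore15-1D minus Col passed at 3770 loci higher (18.7%) and 4434 lower (21.9%), and Col minus ore15-2 at 311 higher (1.54%) and 434 lower (2.15%).

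**Figure D1:**
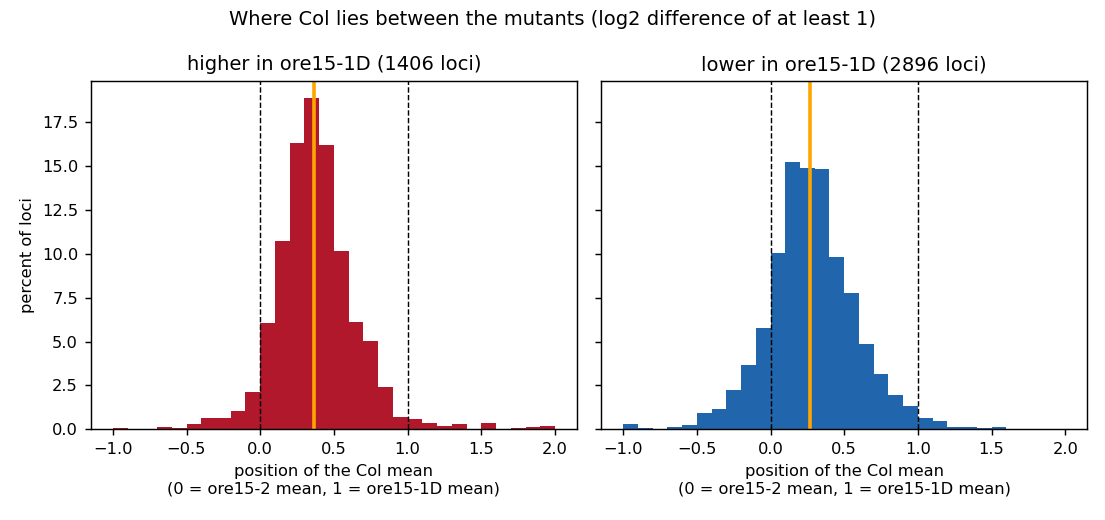
Position of the Col mean between the ore15-2 mean (0, dashed) and the ore15-1D mean (1, dashed) for loci with adjusted p below 0.05 and a log2 difference of at least 1; bars are percent of loci, values beyond the axis are drawn in its end bins, and the orange line is the median. The 1406 loci higher in ore15-1D centre on 0.362 and the 2896 lower ones on 0.267, both nearer to ore15-2.

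Most of the 10 widest rises were in genes near or below detection in ore15-2, and 4 of the 10, ORE15 included, had both Col arrays between the mutants. Of the 1406 loci higher by at least 1, 65% were ordered so. ENDO3, an endonuclease gene, was at -3.03 and -2.86 in ore15-1D, against -8.25 and -8.43 in ore15-2, and -6.41 and -7.09 in Col. It was at least 11.6-fold higher in ore15-1D, since it was not well above background in ore15-2, nor in Col. It entered the test through ore15-1D alone. AT1G12160, a flavin-binding monooxygenase gene, was likewise detected in ore15-1D alone, at least 21.3-fold higher. These minimum folds hold for the main scale only. The log2 differences of ENDO3 and AT1G12160 were 1.27 and 1.69 after normexp. In the authors' deposited table they were 2.295 and 2.83. AT1G67790, measured on all 6 arrays, stood at 0.76 and 0.81 in ore15-1D, against -3.11 and -3.06 in ore15-2, and -3.25 and -2.95 in Col. Its Col and ore15-2 arrays overlapped, and ore15-1D alone stood apart, with a difference of 3.87 ± 0.12 (SE; adjusted p = 0.00182). OCT1, an organic cation transporter gene, and COPT3, a copper transporter gene, were at least 2.68-fold and 4.9-fold higher, and neither was well above background in ore15-2 or Col. Their log2 differences were 0.47 and 0.72 after normexp, and 0.95 and 1.45 in the authors' deposited table. The terpene synthase gene TPS03 differed from those: it was at -4.32 and -4.61 in ore15-1D, against -7.48 and -8.61 in ore15-2, and -4.55 and -5.03 in Col, high in Col as in ore15-1D and not well above background in ore15-2, at least 4.04-fold higher in ore15-1D than in ore15-2 at its brightest probe. The log2 difference of TPS03 was 3.58 at that probe and 1.39 when its probes were averaged. After normexp it was 0.69, and 1.31 in the authors' deposited table. AT5G23240, which encodes a DNAJ-domain protein, was highest in Col, at -2.01 and -2.02 in ore15-1D, against -5.92 and -7.04 in ore15-2, and -0.80 and -1.11 in Col, with 1 of 2 ore15-2 arrays well above background. Its difference between the mutants was 4.46 ± 0.38 (SE; adjusted p = 0.003), but 1.51 after normexp and 2.47 in the authors' deposited table. The trichome gene GL1 had -1.64 and -1.47 in ore15-1D, against -4.14 and -7.15 in ore15-2, and -3.00 and -3.51 in Col, also with 1 of 2 ore15-2 arrays well above background. Its difference was 4.09 ± 0.99 (SE; adjusted p = 0.0232), 1.69 after normexp and 2.69 in the authors' deposited table. ARD3, an enzyme gene of methionine salvage with 1 of 2 ore15-2 arrays well above background, differed by 3.81 ± 0.78, 0.83 after normexp and 1.57 in the authors' deposited table. ARD3, COPT3 and GL1 missed the threshold when either ore15-1D array was left out (adjusted p from 0.059 to 0.102), and COPT3 also without ore15-2 replicate 2 (adjusted p = 0.0677).

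Of the 10 widest falls, which ranged from -5.59 to -7.49, 9 had both Col arrays between the mutants. Of the 2896 loci lower by at least 1, 50.3% were ordered so. The defensin-like gene AT2G16367 (chromosome 2, 7079810 to 7079869 of TAIR10) had -4.35 and -5.19 in ore15-1D, against 1.95 and 2.19 in ore15-2, and -0.90 and -1.68 in Col, with Col near the middle and no overlap between genotypes. Its difference was -6.84 ± 0.38 (SE; adjusted p = 0.00199). XTH31, a xyloglucan-modifying enzyme gene, had -8.25 and -5.14 in ore15-1D, against 0.48 and 1.11 in ore15-2, and -1.04 and -0.59 in Col, with 1 of 2 ore15-1D arrays well above background, and a difference of -7.49 ± 1.04 (SE; adjusted p = 0.0058), or -3.52 after normexp and -4.86 in the authors' deposited table. The receptor-like kinase gene CRK12 and the loci AT1G11070, AT1G24147 and AT3G44970 were not well above background on either ore15-1D array, and were at least 20.6-fold, 26.4-fold, 28.3-fold and 15.1-fold lower there than in ore15-2. AT2G32870, which encodes a TRAF-like protein, was at least 53.2-fold lower. All these had both Col arrays between the mutants. After normexp the log2 differences were -1.45 for CRK12, -1.52 for AT1G11070, -1.68 for AT1G24147, -1.18 for AT3G44970 and -2.15 for AT2G32870. In the authors' deposited table they were, in that order, -2.51, -2.65, -2.79, -2.18 and -2.885. AT5G41540, a disease resistance gene of the NBS-LRR class that was not well above background on either ore15-1D array (at least 9.76-fold lower), and AT1G47400, detected on 1 of 2 of them, were lower too, but their Col arrays were far apart (-8.59 and -5.15 for AT5G41540, -3.97 and -1.52 for AT1G47400), and the slide-adjusted differences were -2.17 and -3.55, against -5.61 and -6.00 before. For AT1G47400 the difference was -2.04 after normexp and -3.19 in the authors' deposited table, and for AT5G41540 it was -0.84 and -1.58. AT5G41540 did not pass without either ore15-1D array or without ore15-2 replicate 2 (adjusted p from 0.0912 to 0.103), and AT1G47400 did not pass without ore15-1D replicate 1 or either ore15-2 array (adjusted p from 0.0521 to 0.0587).

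**Figure D2:**
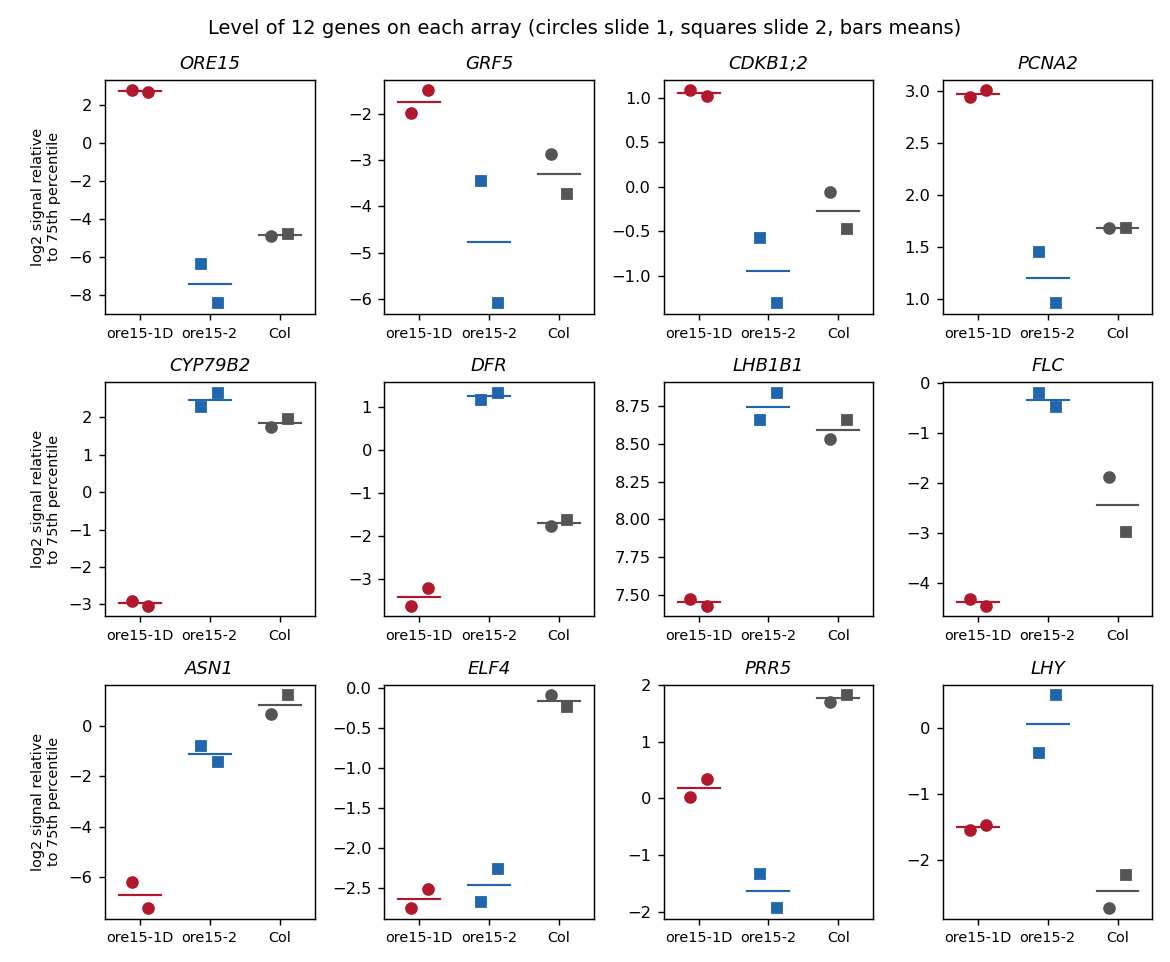
Level (log2 signal relative to the array's 75th percentile) of 12 genes on each array, with ore15-1D at the left, ore15-2 in the middle and Col at the right of each panel; circles are slide 1, squares slide 2, and bars are means of 2 arrays. Col lies between the mutant means for the first 8 genes, above both for ASN1, ELF4 and PRR5, and below both for LHY.

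Genes of cell proliferation were mostly higher in ore15-1D, and Col lay between the mutants for most genes of DNA replication and mitosis. Of the 12 GRF and GIF genes, all tested, 9 were higher and none lower, with a median difference of 2.03 (slide-adjusted 1.54, 1.1 after normexp) beside -0.02 over all tested loci. GRF6 had -2.41 and -2.66 in ore15-1D, against -4.85 and -5.70 in ore15-2, and -4.71 and -5.11 in Col. The difference was 2.74 ± 0.32 (SE; adjusted p = 0.0043). GRF9 had -0.10 and -0.31 in ore15-1D, against -2.05 and -3.76 in ore15-2, and -1.44 and -1.97 in Col, with both Col arrays between the mutants and a difference of 2.70 ± 0.59 (SE; adjusted p = 0.0173), which missed the threshold without ore15-1D replicate 1 (adjusted p = 0.0846) or replicate 2 (adjusted p = 0.0762). GRF5 had -1.99 and -1.49 in ore15-1D, against -3.45 and -6.10 in ore15-2; the mutants' arrays did not overlap, but the ore15-2 arrays were far apart, and the difference of 3.04 ± 0.91 (SE; adjusted p = 0.042) did not pass when any array other than ore15-2 replicate 1 was left out (adjusted p from 0.0632 to 0.162). The co-activator gene GIF1 differed by 2.07 ± 0.48 (SE; adjusted p = 0.0203) and missed the threshold without either ore15-1D array or without ore15-2 replicate 2 (adjusted p from 0.0613 to 0.103). GRF8 was well above background in ore15-1D alone, through which it entered the count, and at least 1.69-fold higher than in ore15-2 at its brightest probe. The log2 difference of GRF8 was 2.18 at that probe and 1.03 when its probes were averaged. After normexp it was 0.29, and 0.58 in the authors' deposited table. The count of 9 became 5 without ore15-1D replicate 1 and 5 without replicate 2.

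Both Col arrays lay between the mutants at 3 of the 12 GRF and GIF genes. Over all tested loci 13.2% were ordered with ore15-1D highest, and 47.3% of the loci called higher. Of the DNA replication genes 25 of 29 were higher, none lower, and 18 had both Col arrays between the mutants. Their median difference was 1.1 (slide-adjusted 1.09). PCNA2, the sliding clamp of DNA polymerases, had 2.94 and 3.01 in ore15-1D, against 1.44 and 0.95 in ore15-2, and 1.68 and 1.68 in Col. The difference was 1.78 ± 0.17 (SE; adjusted p = 0.00341), or 1.77 adjusted for slide. ORC4, a subunit of the origin recognition complex, had 0.79 and 0.80 in ore15-1D, against -0.58 and -1.16 in ore15-2, and -0.20 and -0.39 in Col. The difference was 1.66 ± 0.21. The count was 17 without ore15-1D replicate 1 and 16 without replicate 2. Among genes of the G2 and M phases, 28 of 29 were higher and none lower, with a median of 1.68 (slide-adjusted 1.22) and 21 ordered. CDKB1;2, a mitotic cyclin-dependent kinase gene, had 1.08 and 1.02 in ore15-1D, against -0.58 and -1.31 in ore15-2, and -0.06 and -0.48 in Col. The difference was 2.00 ± 0.28 (SE; adjusted p = 0.00603). The mitotic cyclin genes CYCB1;3 and CYCB2;3 differed by 1.97 ± 0.36 and 2.15 ± 0.35, and AUR3, a mitotic kinase gene, by 2.00 ± 0.39. CYCB1;3 and AUR3 missed the threshold without either ore15-1D array (adjusted p from 0.0556 to 0.0702), and CYCB2;3 without ore15-1D replicate 2 (adjusted p = 0.0526). Col took a place nearer the middle for the mitotic genes, at a median position of 0.46 over those called, than for the replication genes, at 0.31; that difference was not tested. The mitotic count was 7 without ore15-1D replicate 1 and 3 without replicate 2, and the ore15-2 arrays stood apart from each other at these genes (for AUR3, -1.49 and -2.66). Of the 29, 5 had an unadjusted p below 0.05 with slide as a block.

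Ribosome biogenesis genes gave no lower member, with 10 of 15 higher and a median of 0.71 (slide-adjusted 1.1). NAP57, a pseudouridine synthase of nucleolar ribonucleoproteins, had 4.71 and 4.72 in ore15-1D, against 3.54 and 3.35 in ore15-2, and 3.73 and 4.21 in Col. The difference was 1.27 ± 0.18 (SE; adjusted p = 0.00622). NOP56, a protein of the same class of particles, differed by 1.37 ± 0.27, and missed the threshold without ore15-1D replicate 1 (adjusted p = 0.0581) or replicate 2 (adjusted p = 0.0756). The count was 3 without ore15-1D replicate 1 and 3 without replicate 2, and 4 without ore15-2 replicate 2. Of 16 genes of CDK inhibitors and the endocycle, 7 were higher and 5 lower, with fewer of both when either ore15-1D array was left out. KRP1, a CDK inhibitor gene, was lower, with a difference of -1.42 ± 0.13 at -1.31 and -1.27 in ore15-1D, against 0.06 and 0.21 in ore15-2, and 0.05 and -0.26 in Col, while KRP3, of the same family, was higher by 1.56 ± 0.38. SMR5, another CDK inhibitor gene, was lower, with a difference of -1.75 ± 0.25, and CCS52B, an activator of the anaphase-promoting complex, was higher by 1.77 ± 0.41. KRP3 and CCS52B missed the threshold without either ore15-1D array (adjusted p from 0.0812 to 0.109), and KRP3 also without ore15-2 replicate 2 (adjusted p = 0.0541).

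Of 26 tested leaf size regulators 10 were higher (2 without either ore15-1D array, 3 without ore15-2 replicate 2) and 7 lower (4 without either ore15-1D array). SPT, a transcription factor that restrains leaf growth, was higher, at -0.95 and -0.89 in ore15-1D, against -2.99 and -3.74 in ore15-2, and -2.30 and -2.74 in Col. The difference was 2.44 ± 0.29 (SE; adjusted p = 0.00437). EOD3, a cytochrome P450 that promotes organ growth, was lower, at -4.97 and -4.96 in ore15-1D, against -2.96 and -1.88 in ore15-2, and -3.94 and -4.02 in Col. The difference was -2.54 ± 0.36 (SE; adjusted p = 0.00594), and ROT3, a brassinosteroid enzyme of leaf elongation, was lower, with a difference of -1.90 ± 0.23. Both Col arrays lay between the mutants for SPT and EOD3. The median of the list was 0.11, and -0.07 adjusted for slide. Of 14 leaf polarity genes 2 were higher (5 after normexp, 4 in the authors' deposited table) and 4 lower, and both counts changed when any mutant array was left out. YAB5, an abaxial gene, was among the lower ones, at -1.29 ± 0.10. PHB, an adaxial gene, was among the higher ones, at 0.60 ± 0.08. Of 18 stomatal lineage genes 2 were higher (1 without either ore15-1D array, 6 without ore15-2 replicate 1, 4 in the authors' deposited table) and 3 lower. The receptor kinase gene ER, which also shapes stature, had 4.06 and 4.07 in ore15-1D, against 2.85 and 2.53 in ore15-2, and 3.16 and 2.86 in Col. The difference was 1.38 ± 0.16 (SE; adjusted p = 0.00427), while FAMA, EPF1 and MUTE were lower, with differences of -1.03, -0.82 and -0.61. MUTE missed the threshold without ore15-1D replicate 1 (adjusted p = 0.061) or replicate 2 (adjusted p = 0.0819). Trichome regulators gave 8 higher (1 or 0 without ore15-1D replicate 1 or 2, 5 or 2 without ore15-2 replicate 1 or 2) and 4 lower of 15. GL1, the MYB factor that starts trichome fate, was among the higher ones, as described above, and TRY and ETC3, which inhibit that fate in neighbouring cells, were lower, with differences of -1.76 ± 0.36 and -1.61 ± 0.11. TRY missed the threshold without ore15-1D replicate 1 (adjusted p = 0.0644) or replicate 2 (adjusted p = 0.0797).

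All 42 nuclear genes of the photosystems and antennae were lower in ore15-1D on this scale, with a median difference of -0.82 (slide-adjusted -0.74) and Col close to ore15-2, at a median position of 0.12. The scaling bore on this: 39 of the 42 lay in the brightest band of probes, and after quantile normalization 17 were lower and the median was -0.09 (17 and -0.13 after normexp), while the median was -0.37 with 29 lower in the authors' deposited table. LHB1B1, an antenna protein of photosystem II, had 7.47 and 7.43 in ore15-1D, against 8.65 and 8.84 in ore15-2, and 8.53 and 8.65 in Col. The difference was -1.29 ± 0.10 (SE; adjusted p = 0.00282), its Col arrays overlapping ore15-2. That difference was -0.49 after quantile normalization, -0.455 after normexp and -1.09 in the authors' deposited table. LHCB4.3, a minor antenna gene, had 0.90 and 0.66 in ore15-1D, against 3.29 and 4.08 in ore15-2, and 2.07 and 2.69 in Col, with Col between the mutants and a difference of -2.91 ± 0.34 (SE; adjusted p = 0.00427), or -2.87 after quantile normalization. Enzymes of carbon fixation and photorespiration gave 26 lower of 27 (16 without ore15-1D replicate 2) and none higher, and 20 of them were ordered, with a median of -0.93 (slide-adjusted -0.78, -0.60 after quantile normalization, -0.55 after normexp). Over all tested loci 13.6% were ordered with ore15-2 highest, and 43.1% of the loci called lower. SHM1, the mitochondrial serine hydroxymethyltransferase of photorespiration, had 5.48 and 5.33 in ore15-1D, against 6.58 and 6.99 in ore15-2, and 6.27 and 6.37 in Col. The difference was -1.38 ± 0.16 (SE; adjusted p = 0.00423). RBCS1A, a small subunit of rubisco, differed by -0.74 ± 0.08, but by -0.02 after quantile normalization and by 0.02 in the authors' deposited table. It passed in neither of these, nor after normexp (adjusted p = 0.146). The RBCS and LHCB1 genes have near-identical copies, and their probes may share RNA. Of 24 chlorophyll genes 19 were lower (9 or 8 without ore15-1D replicate 1 or 2, 11 after normexp, 9 in the authors' deposited table) and none higher (1 without ore15-2 replicate 1, 1 after normexp). Quantile normalization left 14 lower. The median was -0.50 (slide-adjusted -0.52, -0.28 after normexp, -0.30 in the authors' deposited table). HEMA1, at the start of chlorophyll synthesis, differed by -1.07 ± 0.12, and CH1, the chlorophyll b synthase, by -1.16 ± 0.18.

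Glucosinolate genes, which make the sulfur-rich defence compounds of this family of plants, were lower in ore15-1D. Of 17 in the indole branch 11 were lower and 1 higher (0 without either ore15-1D array), with a median of -1.42 (slide-adjusted -1.23, -0.73 after normexp, -0.81 in the authors' deposited table). Of 24 in the aliphatic branch 20 were lower (13 without ore15-1D replicate 2) and 1 higher (2 after quantile normalization, 2 after normexp), with a median of -1.50 (slide-adjusted -1.29, -0.96 after normexp). CYP79B2, which turns tryptophan into the indole precursor (chromosome 4, 18527391 to 18527450 of TAIR10), had -2.90 and -3.04 in ore15-1D, against 2.28 and 2.66 in ore15-2, and 1.74 and 1.95 in Col. The 3 genotypes did not overlap, Col lay near ore15-2, and the difference of -5.44 ± 0.16 (SE; adjusted p = 0.00182) was -5.23 adjusted for slide. Its paralogue CYP79B3 had -2.19 and -2.30 in ore15-1D, against 1.24 and 1.67 in ore15-2, and 0.34 and 0.66 in Col. The difference was -3.70 ± 0.19, and that of CYP83B1, the next enzyme, was -2.32 ± 0.19. MYB51, a regulator of the branch, had -6.04 and -4.72 in ore15-1D, against -2.57 and -2.57 in ore15-2, and -2.75 and -2.79 in Col. The difference was -2.81 ± 0.43 (SE; adjusted p = 0.00729). In the aliphatic branch CYP79F1, the enzyme that enters it, had -1.33 and -1.42 in ore15-1D, against 0.69 and 1.55 in ore15-2, and 0.74 and 1.09 in Col: Col overlapped ore15-2, and the difference was -2.49 ± 0.31 (SE; adjusted p = 0.00474). SOT17, a sulfotransferase at the end of the core pathway, and FMO GS-OX1, which modifies the side chain, differed by -2.64 ± 0.21 and -2.91 ± 0.28.

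Flavonoid and anthocyanin genes were lower as well, 18 of 24 with 2 higher (1 or 0 without ore15-1D replicate 1 or 2, 1 or 0 without ore15-2 replicate 1 or 2, 1 without either Col array), but Col stood elsewhere. The median difference was -0.87 (slide-adjusted -0.94), and Col sat at a median position of 0.53 over the called genes. With ore15-2 highest, 11 genes were ordered, where 13.6% of all tested loci lay. Another 8 had both Col arrays below all 4 mutant arrays, where 8.23% of all tested loci lay. The genes named here had the Col mean between the mutants and are not among those 8. DFR, the first enzyme committed to anthocyanins (chromosome 5, 17164360 to 17164419 of TAIR10), had -3.63 and -3.23 in ore15-1D, against 1.18 and 1.34 in ore15-2, and -1.77 and -1.62 in Col. Its arrays fell into 3 separate levels, with a difference of -4.69 ± 0.17 (SE; adjusted p = 0.00182) and a slide-adjusted -4.54. UF3GT, which adds sugar to anthocyanins, had -5.28 and -4.48 in ore15-1D, against -0.15 and -0.42 in ore15-2, and -2.10 and -2.10 in Col. The difference was -4.60 ± 0.28. TT19, needed to carry them to the vacuole, had -2.58 and -1.90 in ore15-1D, against 1.78 and 1.41 in ore15-2, and 0.17 and 0.01 in Col. The difference was -3.84 ± 0.26. LDOX, the anthocyanidin synthase, differed by -3.24 ± 0.23 and had its Col arrays nearer to ore15-1D, at position 0.77. Both steps passed for DFR: ore15-1D minus Col was -1.74 (adjusted p = 0.00599) and Col minus ore15-2 was -2.96 (adjusted p = 0.0189).

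Defence and stress genes were lower in ore15-1D across several lists. Among salicylic acid and defence genes 18 of 26 were lower and 2 higher (1 after normexp), with a median of -1.38 (slide-adjusted -1.12, -0.67 after normexp, -0.81 in the authors' deposited table). SARD1, a regulator of salicylic acid synthesis, had -6.79 and -5.62 in ore15-1D, against -1.28 and -1.40 in ore15-2, and -2.12 and -1.87 in Col, with 1 of 2 ore15-1D arrays well above background and a difference of -4.87 ± 0.39 (SE; adjusted p = 0.00284), or -1.99 after normexp and -3.03 in the authors' deposited table. WRKY33, a defence transcription factor, had -1.25 and 0.02 in ore15-1D, against 2.55 and 1.87 in ore15-2, and 1.09 and 0.63 in Col, and ACD6, a membrane protein that raises salicylic acid, differed by -3.41 ± 0.49. PCC1, a defence gene under clock control, differed by -4.03 ± 1.27 (SE; adjusted p = 0.0475), the arrays of the mutants lying close at their nearest (-1.10 in ore15-1D replicate 2, against 0.19 in ore15-2 replicate 1), and it lost its call when any array other than ore15-2 replicate 1 was left out (adjusted p from 0.0541 to 0.182). Jasmonate genes gave 23 lower (15 without either ore15-1D array) and 1 higher (0 without either ore15-1D array, 0 without ore15-2 replicate 2, 2 without either Col array, 2 after normexp, 2 in the authors' deposited table) of 35, with a median of -0.90 (slide-adjusted -0.85, -0.60 after normexp). AOC1, an enzyme of jasmonate synthesis, had -2.34 and -2.39 in ore15-1D, against 0.80 and 0.52 in ore15-2, and -0.05 and -0.28 in Col. The difference was -3.03 ± 0.14 (SE; adjusted p = 0.00182). CYP94B3, which inactivates the active hormone, and LOX4, a lipoxygenase, differed by -3.92 ± 0.57 and -3.25 ± 0.45. JAZ7, a repressor gene, differed by -5.15 ± 1.05 and by -2.26 when adjusted for slide, its Col arrays standing at -4.22 and -1.34. It missed the threshold when any single mutant array was left out (adjusted p from 0.0515 to 0.0766).

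Genes induced within minutes of touch or wounding had the lowest median of the 41 lists, -1.91 (slide-adjusted -2.17, -1.27 after normexp), with 20 of 25 lower, none higher, and 16 ordered with ore15-2 highest. Over all tested loci 13.6% were ordered so, and 43.1% of the loci called lower. ERF11, an ethylene-responsive transcription factor, had -1.89 and -0.80 in ore15-1D, against 2.25 and 1.78 in ore15-2, and 0.17 and -0.07 in Col. The difference was -3.36 ± 0.40 (SE; adjusted p = 0.00436). ZAT10, a zinc finger gene of many stresses, had 1.41 and 2.76 in ore15-1D, against 5.06 and 4.89 in ore15-2, and 3.55 and 3.41 in Col. The difference was -2.89 ± 0.44 (SE; adjusted p = 0.00726). PUB24, a ubiquitin ligase of the immune response, differed by -3.59 ± 0.48. The ore15-1D arrays stood apart from each other, with replicate 1 below replicate 2 at all 25 genes, and the list summed to 54.1 and 93.9 times the array's 75th percentile in ore15-1D, against 218.1 and 186.8 in ore15-2, and 141.2 and 136.0 in Col. Without ore15-2 replicate 1 the list gave 9 lower genes and without ore15-2 replicate 2 it gave 8. Its median was -1.25 without ore15-1D replicate 1. Of 22 senescence genes 14 were lower (8 without ore15-1D replicate 1) and none higher (1 without ore15-2 replicate 1, 1 without either Col array, 2 after quantile normalization, 1 in the authors' deposited table), with a median of -0.83 (slide-adjusted -0.87). NAP, a NAC factor that drives leaf senescence, had -3.62 and -3.05 in ore15-1D, against -0.65 and -0.53 in ore15-2, and -1.34 and -1.77 in Col. The difference was -2.74 ± 0.25 (SE; adjusted p = 0.00311) with Col between, and NAC072, of the same family, differed by -2.30 ± 0.22. SAG21, a gene of senescing and stressed leaves, had -2.85 and -1.30 in ore15-1D, against 1.1 and 0.40 in ore15-2, a difference of -2.83 ± 0.55 that missed the threshold without ore15-2 replicate 1 (adjusted p = 0.0575). The transcription factor gene WRKY22 had -1.92 and -1.42 in ore15-1D, against 0.93 and 0.50 in ore15-2, a difference of -2.38 ± 0.25. Of 14 heat shock genes 8 were lower and 2 higher (1 without either ore15-1D array, 1 without ore15-2 replicate 2, 1 in the authors' deposited table). Of 34 cold and abscisic acid genes 14 were lower (5 or 9 without ore15-1D replicate 1 or 2, 9 or 8 without ore15-2 replicate 1 or 2) and 5 higher (2 without either ore15-1D array, 3 without ore15-2 replicate 2), the lower ones among them NCED3, the limiting enzyme of abscisic acid synthesis under drought, at -5.96 and -4.92 in ore15-1D, against -2.55 and -1.99 in ore15-2, and -3.59 and -3.17 in Col. The difference was -3.18 ± 0.41 (SE; adjusted p = 0.00516).

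In the nitrate list 17 of 21 genes were lower (9 without either ore15-1D array) and 2 higher (1 without either ore15-1D array), with a median of -1.14 (slide-adjusted -0.88, -0.70 in the authors' deposited table). The transporter gene NRT2.1, best known from roots, had -8.09 and -7.15 in ore15-1D, against -3.12 and -2.10 in ore15-2, and -2.94 and -3.07 in Col. It was not well above background on either ore15-1D array and was at least 20.4-fold lower there. Its log2 difference was -5.01, or -1.33 after normexp and -2.26 in the authors' deposited table. LBD39, a nitrate-induced repressor, had -3.10 and -3.50 in ore15-1D, against 0.64 and 0.77 in ore15-2, and -0.36 and 1.16 in Col. The difference was -4.01 ± 0.51 (SE; adjusted p = 0.00502), or -2.49 adjusted for slide. NRT1.5, a transporter of xylem loading, differed by -3.45 ± 0.64 at its brightest probe and by -0.47 when its probes were averaged (adjusted p = 0.719), and its brightest probe missed the threshold without either ore15-1D array or without ore15-2 replicate 2 (adjusted p from 0.0525 to 0.062). Of 19 iron genes 8 were lower (3 without either ore15-1D array, 4 without ore15-2 replicate 2) and 1 higher (2 without ore15-2 replicate 1, 2 without either Col array, 3 after quantile normalization, 2 after normexp, 3 in the authors' deposited table). FER2, an iron-storage ferritin, was the higher one, at -2.26 and -2.45 in ore15-1D, against -4.46 and -5.00 in ore15-2, and -4.29 and -4.39 in Col. The difference was 2.38 ± 0.20 (SE; adjusted p = 0.003). NAS1, which makes the iron chelator nicotianamine, was at least 9.62-fold lower in ore15-1D. Its log2 difference was -4.49, or -0.79 after normexp and -1.49 in the authors' deposited table. BHLH101, a transcription factor of iron shortage, was at least 6.24-fold lower than in ore15-2 (log2 difference -0.50 after normexp, -1.02 in the authors' deposited table). FRO3, a ferric reductase gene, differed by -2.57 ± 0.59. The Col arrays were apart for both (-6.49 and -4.07 for BHLH101, -1.14 and 0.68 for FRO3), and their slide-adjusted differences were -1.89 and -0.75. Both missed the threshold when any single mutant array was left out (adjusted p from 0.0522 to 0.0639 for BHLH101 and from 0.0705 to 0.0964 for FRO3). The median of the iron list was -1.08 (slide-adjusted -0.44, -0.43 after normexp, -0.47 in the authors' deposited table). Of 18 copper genes 8 were lower (5 or 3 without ore15-1D replicate 1 or 2, 5 without ore15-2 replicate 2, 4 after normexp, 4 in the authors' deposited table) and 4 higher (1 without either ore15-1D array, 2 or 1 without ore15-2 replicate 1 or 2). The median of the copper list was -0.34 (slide-adjusted -0.30, -0.12 after quantile normalization, -0.05 after normexp, -0.10 in the authors' deposited table).

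Of 45 auxin genes 12 were higher (6 or 5 without ore15-1D replicate 1 or 2) and 21 lower (12 without ore15-1D replicate 1). The auxin synthesis genes YUC1 and YUC4 were higher. YUC4 had -3.57 and -3.46 in ore15-1D, against -5.54 and -8.14 in ore15-2, and -5.19 and -5.41 in Col. The difference was 3.33 ± 0.85 (SE; adjusted p = 0.0264), or 0.75 after normexp and 1.18 in the authors' deposited table, with 1 of 2 ore15-2 arrays well above background. YUC1 was at least 4.68-fold higher, detected in ore15-1D alone, through which it entered the count. Its log2 difference was 3.49, or 0.64 after normexp and 1.195 in the authors' deposited table. Without ore15-1D replicate 2 neither passed (adjusted p = 0.0511 for YUC1 and 0.11 for YUC4), and YUC4 also did not without ore15-1D replicate 1 or Col replicate 1 (adjusted p = 0.101 and 0.0503). PIN5, an internal auxin carrier gene, was detected in ore15-2 alone and was at least 2.21-fold lower in ore15-1D, but it did not pass after normexp (a difference of -0.18, adjusted p = 0.113). Small auxin-induced SAUR genes gave 12 lower (7 or 6 without ore15-1D replicate 1 or 2) and 1 higher (0 without either ore15-1D array, 2 or 0 without ore15-2 replicate 1 or 2, 2 after normexp, 2 in the authors' deposited table) of 28. SAUR64 had -1.93 and -2.06 in ore15-1D, against 0.67 and 1.06 in ore15-2, and -0.96 and -0.58 in Col. The difference was -2.86 ± 0.20 (SE; adjusted p = 0.00252). Its neighbours SAUR63 and SAUR65, of similar sequence, differed by -2.16 ± 0.16 and -2.64 ± 0.31. Among 29 cytokinin genes 10 were lower (3 or 6 without ore15-1D replicate 1 or 2) and 4 higher (0 without either ore15-1D array, 2 without ore15-2 replicate 2). The response regulator genes ARR5 and ARR6, which cytokinin induces, were lower: ARR5 had -3.98 and -3.43 in ore15-1D, against -1.26 and -0.86 in ore15-2, and -2.34 and -1.41 in Col. The difference was -2.65 ± 0.38 (SE; adjusted p = 0.00615), and ARR6 differed by -2.82 ± 0.48, or -1.55 adjusted for slide. ARR6 missed the threshold without ore15-1D replicate 1 (adjusted p = 0.0561) or ore15-2 replicate 2 (adjusted p = 0.0527). CRF3, a cytokinin response factor, was higher by 1.77 ± 0.33, and missed it without ore15-1D replicate 1 (adjusted p = 0.0576) or replicate 2 (adjusted p = 0.0667). Of 36 gibberellin and brassinosteroid genes 18 were lower (10 without ore15-1D replicate 1) and 4 higher (0 without either ore15-1D array, 2 without ore15-2 replicate 1, 7 after normexp). GASA6, a gibberellin-regulated peptide gene, had 1.39 and 1.25 in ore15-1D, against 4.24 and 4.47 in ore15-2, and 4.11 and 4.26 in Col. The difference was -3.03 ± 0.12 (SE; adjusted p = 0.00182), with Col overlapping ore15-2.

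Of 41 expansin and XTH genes, which loosen or remodel the wall as cells expand, 18 were lower (10 or 8 without ore15-1D replicate 1 or 2) and 5 higher (1 or 2 without ore15-1D replicate 1 or 2, 3 without ore15-2 replicate 2). Of 13 plasma membrane aquaporins 7 were lower (4 without either ore15-1D array) and 2 higher (0 without either ore15-1D array, 1 without ore15-2 replicate 2, 4 after quantile normalization, 4 after normexp, 4 in the authors' deposited table). XTH7 had -1.32 and -1.60 in ore15-1D, against 3.08 and 3.72 in ore15-2, and 1.83 and 2.60 in Col, with Col between and a difference of -4.86 ± 0.34 (SE; adjusted p = 0.00261). PIP1A, a water channel, had 2.59 and 2.46 in ore15-1D, against 3.96 and 4.46 in ore15-2, and 3.68 and 4.02 in Col. The difference was -1.69 ± 0.21 (SE; adjusted p = 0.00497). The expansin and XTH median was -0.85 (slide-adjusted -0.42, -0.39 after normexp, -0.50 in the authors' deposited table).

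**Figure D3:**
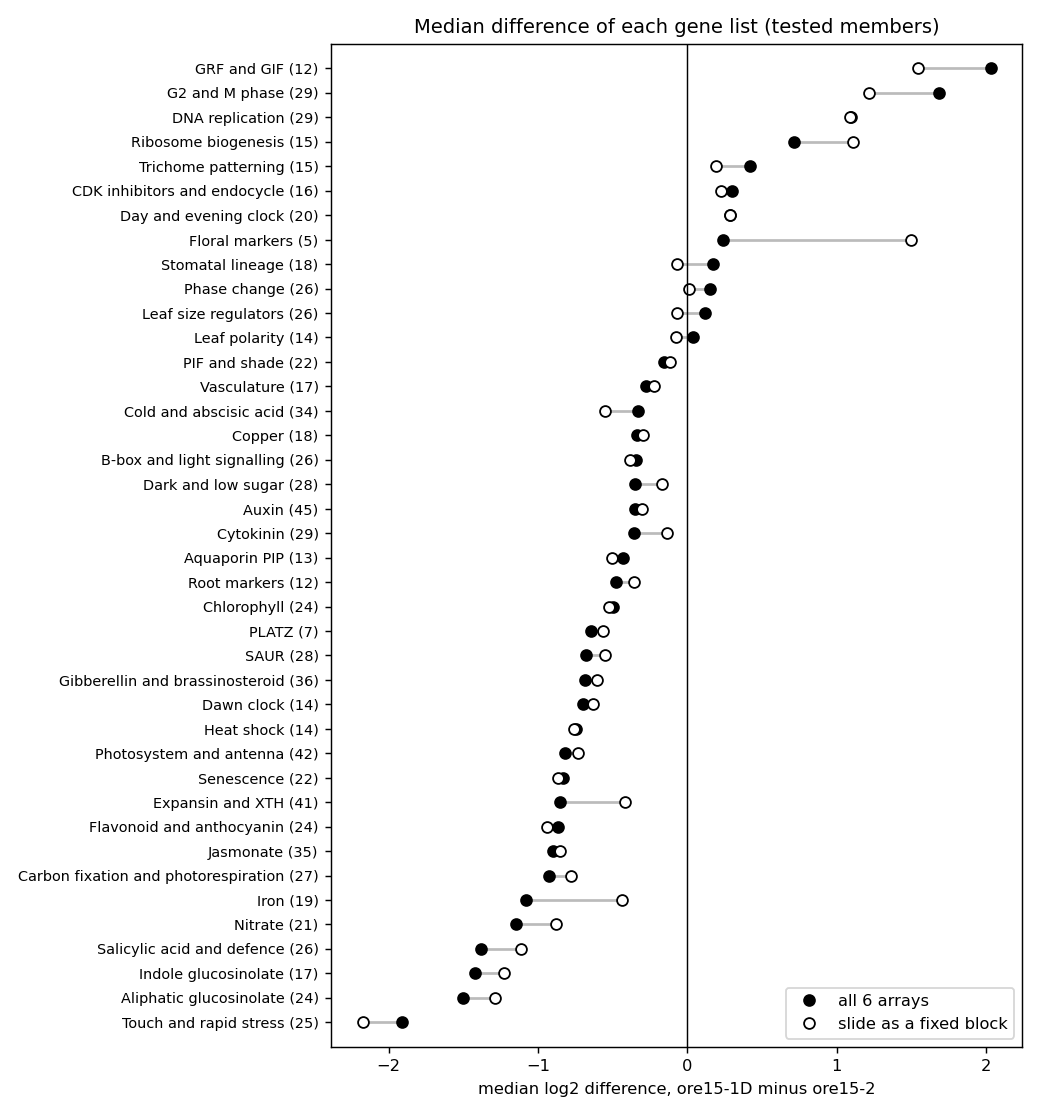
Median log2 difference, ore15-1D minus ore15-2, of each gene list with 5 or more tested members (number in brackets); filled points are the fit of all 6 arrays and open points the fit with slide as a fixed block. The GRF and GIF list lies highest at 2.03 and the touch list lowest at -1.91, and adjusting for slide moved the floral, iron, GRF and GIF, G2 and M phase and expansin lists most.

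Of 26 flowering and phase genes 10 were higher (6 without ore15-1D replicate 2) and 7 lower. FLC, the repressor of flowering that winter cold silences, had -4.32 and -4.45 in ore15-1D, against -0.21 and -0.48 in ore15-2, and -1.89 and -2.98 in Col: 3 separate levels, with a difference of -4.05 ± 0.37 (SE; adjusted p = 0.00316) and a slide-adjusted -5.13. Its relative MAF5 had -6.31 and -5.19 in ore15-1D, against -1.24 and -1.22 in ore15-2, and -2.17 and -2.26 in Col. The difference was -4.52 ± 0.37, and SMZ, a further repressor of flowering, differed by -3.11 ± 0.12. FUL, a MADS gene of the transition to flowering, was higher, at 0.18 and 0.28 in ore15-1D, against -2.55 and -2.80 in ore15-2, and -2.17 and -2.28 in Col. The difference was 2.91 ± 0.12 (SE; adjusted p = 0.00182). Among the markers of other tissues, the floral gene SEP3 was higher, at -2.86 and -3.12 in ore15-1D, against -5.49 and -5.89 in ore15-2, and -4.23 and -3.77 in Col. The difference was 2.70 ± 0.23 (SE; adjusted p = 0.00296). The floral gene PI was lower, with a difference of -2.10 ± 0.20. The 5 tested floral markers summed to 0.729 to 0.734 times the array's 75th percentile in ore15-1D, against 0.568 to 0.674 in ore15-2, and 0.499 to 0.592 in Col. Sums of this kind weigh most on the brightest probes. The differences of the 3 tested meristem markers ran from -0.75 to 1.24, with a median of -0.26. KNAT6, 1 of them, was well above background on both ore15-1D arrays and on neither ore15-2 array. The 3 tested meristem markers summed to 3.75 to 3.96 in ore15-1D, against 5.93 to 6.96 in ore15-2, and 6.28 to 6.86 in Col, and CLV1, the one that passed, was lower, with a difference of -0.75 ± 0.12 that missed the threshold without ore15-1D replicate 1 (adjusted p = 0.0533). Of 12 root markers 5 were lower (3 after quantile normalization, 3 after normexp) and 2 higher (1 without either ore15-1D array, 1 without ore15-2 replicate 2, 1 in the authors' deposited table), and they summed to 3.55 to 3.75 in ore15-1D, against 3.21 to 3.35 in ore15-2, and 3.51 to 3.77 in Col. Their part in the other results was not tested, and fewer cells of a kind and less RNA per cell cannot be told apart in whole leaves.

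Many clock genes lay outside the order of the mutants. Of the day and evening genes 2 of 20 were ordered, and of the dawn genes 5 of 14, where 26.8% of all tested loci were. Of 20 day and evening genes 14 had both Col arrays above all 4 mutant arrays, where 8.8% of all tested loci lay, and of 14 dawn genes 7 had both Col arrays below, where 8.23% lay. Between the mutants, 7 day and evening genes were higher (2 without either ore15-1D array, 4 without ore15-2 replicate 2) and 2 lower (1 without either ore15-1D array, 4 without ore15-2 replicate 1). Of the dawn genes 10 were lower (4 or 2 without ore15-1D replicate 1 or 2) and none higher (1 after quantile normalization, 1 after normexp, 1 in the authors' deposited table). PRR5, a day-phase repressor of LHY and CCA1 (chromosome 5, 8356221 to 8356280 of TAIR10), had 0.02 and 0.34 in ore15-1D, against -1.34 and -1.94 in ore15-2, and 1.71 and 1.82 in Col. All 3 genotypes were separate with Col highest and ore15-2 lowest, and the mutants differed by 1.82 ± 0.23 (SE; adjusted p = 0.00502), or 1.93 adjusted for slide. ore15-1D minus Col was -1.58 (adjusted p = 0.0109), and Col minus ore15-2 was 3.40 (adjusted p = 0.0189). LHY was the mirror image, at -1.54 and -1.47 in ore15-1D, against -0.37 and 0.50 in ore15-2, and -2.72 and -2.22 in Col: lowest in Col and highest in ore15-2, with a difference of -1.56 ± 0.33 (SE; adjusted p = 0.0164). CCA1 differed by -1.19 ± 0.24 (SE; adjusted p = 0.0133) with Col lowest too. Both missed the threshold without either ore15-1D array (adjusted p from 0.0641 to 0.0805), and CCA1 also in the authors' deposited table (a difference of -0.58, adjusted p = 0.0502). GRP7, an RNA-binding protein gene under clock control, had 6.82 and 7.11 in ore15-1D, against 5.53 and 4.44 in ore15-2, and 7.79 and 7.66 in Col, again with Col highest, and differed by 1.99 ± 0.37, which missed it without ore15-1D replicate 1 (adjusted p = 0.0532) or replicate 2 (adjusted p = 0.0698). ELF4, of the evening complex (chromosome 2, 16734338 to 16734397 of TAIR10), was low in both mutants and high in Col: it had -2.76 and -2.52 in ore15-1D, against -2.68 and -2.26 in ore15-2, and -0.09 and -0.23 in Col. The difference was -0.16 ± 0.18 (SE; adjusted p = 0.46) and did not pass, while ore15-1D minus Col was -2.47 (adjusted p = 0.00443) and Col minus ore15-2 was 2.31 (adjusted p = 0.0189). Other clock genes were ordered. RVE1 and LNK4, of the morning phase, were lower, with differences of -1.57 ± 0.27 and -1.25 ± 0.21 with Col between, CDF1 by -1.39 ± 0.19, and ELF4-L3 was higher by 1.81 ± 0.12. Without ore15-1D replicate 2 neither RVE1 (adjusted p = 0.0533) nor LNK4 (adjusted p = 0.0575) passed, and RVE1 did not without replicate 1 (adjusted p = 0.0596). Leaves were taken at 1 time, so a shift in phase and a change in level cannot be told apart.

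**Figure D4:**
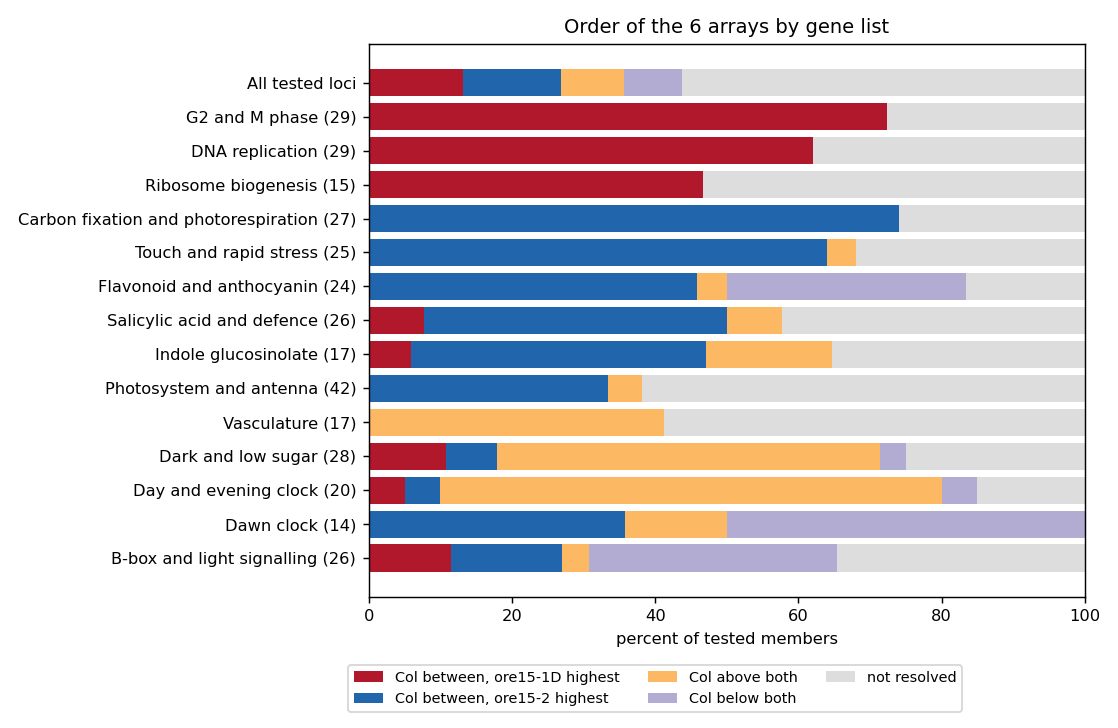
Percent of tested members (number in brackets) of 14 gene lists, and of all tested loci, in each order of the 6 arrays; a member is not resolved where a Col array overlaps the arrays of a mutant. Col lies between the mutants for 21 of 29 mitotic, 18 of 29 replication and 20 of 27 carbon fixation genes, above both for 14 of 20 day and evening clock and 15 of 28 dark and low sugar genes, and below both for 7 of 14 dawn clock genes.

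Genes raised by darkness or sugar shortage also had many members highest in Col. Over all tested loci 8.8% had both Col arrays above all 4 mutant arrays, and 8.23% had both below. Of 28 tested, 15 had both Col arrays above all 4 mutant arrays, while 12 were lower in ore15-1D than in ore15-2 (2 or 3 without ore15-1D replicate 1 or 2, 7 or 6 without ore15-2 replicate 1 or 2) and 4 higher (0 without either ore15-1D array, 2 without ore15-2 replicate 1, 2 without either Col array). ASN1, asparagine synthetase, a textbook gene of sugar starvation, had -6.21 and -7.23 in ore15-1D, against -0.80 and -1.45 in ore15-2, and 0.46 and 1.21 in Col. Its Col arrays were the highest and ore15-1D far the lowest, with 1 of 2 ore15-1D arrays well above background and a difference between the mutants of -5.59 ± 0.46 (SE; adjusted p = 0.00291), or -2.23 after normexp and -2.09 in the authors' deposited table. SEN1, a gene of darkened and ageing leaves, had -5.02 and -5.37 in ore15-1D, against -2.94 and -3.72 in ore15-2, and -1.92 and -1.21 in Col. The difference was -1.86 ± 0.37. KMD1, a repressor of cytokinin signalling, had -0.90 and -0.59 in ore15-1D, against 1.21 and 0.95 in ore15-2, and 1.37 and 2.26 in Col. The difference was -1.82 ± 0.32, again with Col highest and ore15-1D lowest. DIN10, a raffinose synthase family gene of darkened leaves, was high in Col alone, at 1.66 and 1.32 in ore15-1D, against 1.48 and 1.53 in ore15-2, and 3.35 and 4.38 in Col, and the mutants differed by -0.01 ± 0.36 (SE; adjusted p = 0.975). BT2, which sugar represses, differed by -3.92 ± 0.85 and by -1.80 adjusted for slide, its Col arrays lying at -0.10 and 2.03. SEN1, KMD1 and BT2 missed the threshold without ore15-1D replicate 1 (adjusted p from 0.054 to 0.0708). SEN1 and BT2 also did so without replicate 2 (adjusted p = 0.0763 and 0.0864), BT2 without ore15-2 replicate 1 (adjusted p = 0.0672), and SEN1 in the authors' deposited table (a difference of -0.56, adjusted p = 0.0516). Of 17 phloem and xylem genes 8 were lower (4 or 5 without ore15-1D replicate 1 or 2) and 1 higher (0 with any mutant array left out), and 7 had both Col arrays above all 4 mutant arrays and none below. SWEET12, a sucrose exporter of the phloem parenchyma, had -4.67 and -4.24 in ore15-1D, against -2.68 and -1.86 in ore15-2, and -1.53 and -0.84 in Col, Col highest, and differed by -2.19 ± 0.38 (SE; adjusted p = 0.00955). SWEET11, of the same function, differed by -2.97 ± 0.47 with Col overlapping ore15-2. AHA3, a proton pump of phloem companion cells, and PP2-A1, a phloem lectin gene, differed by -1.79 ± 0.23 and -2.16 ± 0.35. SWEET12 missed the threshold without ore15-1D replicate 1 (adjusted p = 0.0576) and PP2-A1 without replicate 2 (adjusted p = 0.0511).

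Light signalling genes were spread over all orders: 7 of 26 B-box and related genes were lower (14 without ore15-2 replicate 1, 12 after normexp, 11 in the authors' deposited table) and 4 higher (2 without ore15-1D replicate 1) between the mutants, and 9 had both Col arrays below all 4 mutant arrays. Over all tested loci 8.23% had both Col arrays below. The B-box gene BBX16 was ordered, at -0.94 and -1.14 in ore15-1D, against 1.21 and 1.73 in ore15-2, and 0.30 and 0.31 in Col. The difference was -2.51 ± 0.19. COL2, of the same class, had 0.92 and 0.84 in ore15-1D, against 2.93 and 3.64 in ore15-2, and 1.60 and 1.86 in Col. The difference was -2.41 ± 0.26. In the PIF and shade list 6 of 22 were lower and 4 higher (1 without either ore15-1D array). PIF7, a shade transcription factor, was lower, with a difference of -1.61 ± 0.17 with Col between, and HFR1, an inhibitor of that class, was higher, at -2.08 and -1.90 in ore15-1D, against -4.45 and -4.26 in ore15-2, and -4.02 and -4.39 in Col, with Col overlapping ore15-2.

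The loci with both Col arrays above all 4 mutant arrays and the widest difference between the mutants were far lower in ore15-1D than in ore15-2. AT2G20670, of unknown function, had -1.78 and -2.48 in ore15-1D, against 2.97 and 2.49 in ore15-2, and 3.22 and 4.18 in Col. The difference was -4.86 ± 0.42 (SE; adjusted p = 0.00302). USPL1, a seed-protein-like gene, had -6.07 and -6.23 in ore15-1D, against -2.31 and -2.28 in ore15-2, and -2.20 and -1.83 in Col, the Col and ore15-2 arrays lying close together. AT4G32480 differed by -3.86 ± 0.33. With Col below both mutants, the widest differences were also towards ore15-2: AT2G41640, a glycosyltransferase gene, had -0.65 and 0.08 in ore15-1D, against 1.99 and 1.77 in ore15-2, and -1.73 and -1.37 in Col. The difference was -2.16 ± 0.28 (SE; adjusted p = 0.00512), while GH3.17, which joins auxin to amino acids, and BGLU40, a beta-glucosidase gene, had Col just under ore15-1D (positions 1.07 and 1.08) and differed by -1.90 ± 0.08 and -1.83 ± 0.09. Some of the widest gaps between Col and the nearer mutant belonged to loci at which the mutants' test did not pass. AT1G07050, a CCT-motif gene, had -3.51 and -3.26 in ore15-1D, against -3.65 and -4.25 in ore15-2, and -0.19 and -0.58 in Col, and the defensin-like gene AT5G44973 had -2.30 and -2.50 in ore15-1D, against -2.56 and -2.43 in ore15-2, and 0.42 and -0.07 in Col, both with Col high. ASG4, a homeodomain-like gene, had -3.32 and -3.28 in ore15-1D, against -3.48 and -2.80 in ore15-2, and -5.07 and -5.51 in Col, and MGL, methionine gamma-lyase, had 1.22 and 1.24 in ore15-1D, against 1.05 and 1.06 in ore15-2, and -0.03 and -0.13 in Col, both with Col low. Of the ordered loci with ore15-1D highest, the cytochrome P450 gene CYP71B22 had -0.50 and -0.47 in ore15-1D, against -3.43 and -4.09 in ore15-2, and -1.39 and -1.72 in Col. The difference was 3.28 ± 0.25. ABCG13, a transporter gene, had -1.14 and -1.26 in ore15-1D, against -4.18 and -4.92 in ore15-2, and -3.24 and -3.90 in Col. The difference was 3.35 ± 0.33.

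Across 20182 loci with both Col arrays the difference between Col replicate 1 (slide 1) and Col replicate 2 (slide 2) correlated at 0.38 (Pearson's r, across loci that share the 2 slides) with the difference between ore15-1D (slide 1) and ore15-2 (slide 2). In size the Col difference was smaller: a median of 0.147 against 0.479, and over the 4302 wider differences 0.265 against 1.53. Adjusting for slide moved the median size of these 4302 to 1.33. No called locus changed sign, which the fit itself ensures, since the gap between the Col arrays is part of the spread that a call has to exceed. Among loci called from the 4 mutant arrays alone, where Col has no part in the call, 422 of 11419 (3.7%) changed sign when adjusted for slide and 10997 kept it. Taking the order within slides, with ore15-1D against Col replicate 1 and Col replicate 2 against ore15-2, gave 54.7% of the differing loci in order.

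**Figure D5:**
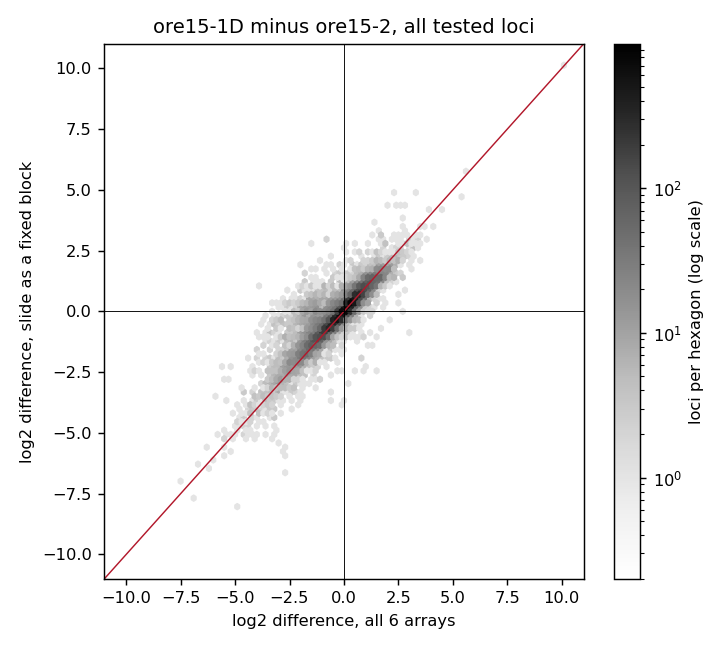
Log2 difference, ore15-1D minus ore15-2, of the tested loci in the fit of all 6 arrays (x axis) and with slide as a fixed block (y axis); shade is the number of loci per hexagon on a log scale and the red line marks equal values. Points lie along the line, with more spread among loci lower in ore15-1D, and ORE15 at the upper right has 10.11 and 10.22.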

How the data were processed

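Cy3-labelled RNA of each sample went on 1 Agilent array of a single colour, 2 per genotype. The scanner files hold linear intensity per spot, and per the file headers the processed signal already has background subtracted; the submitters' processing notes name Agilent Feature Extraction 11.5. A deposited gene table of log2 values, for which no label states the scaling, served as an alternative. Of 43603 probes, 37257 had exactly 1 TAIR10 locus in the deposited array-element table and were used (28309 loci, brightest probe of each), 900 had several and 5446 none. Symbols came from a RefSeq gene table (TAIR10.1), which held 27997 of the loci. Control and outlier-marked spots were left out, and log2 processed signal minus each array's 75th percentile was fitted in R 4.3.3 with limma 3.58.1 (lmFit, eBayes; 3 residual and 1.80 prior degrees of freedom) on all 6 arrays. Testing required a probe well above background on both ore15-1D arrays or both ore15-2 arrays. A locus that met this in only 1 mutant entered through that mutant. Its p-value is then no separate support for the difference. P-values are two-sided, measure only the spread between these samples, and are adjusted by Benjamini-Hochberg over 20204 loci. "At least N-fold" sets the brighter mutant's mean against the higher of the lowest well-measured signal and the dim probe's own signal. It is a minimum on the main scale only. The named genes given so differed by less after normexp and, where they had a value there, in the authors' deposited table. The number of arrays limits the precision.

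The comparison, the 41 gene lists and the tests were chosen with earlier results of these data known; lists are described by counts and medians, with no set test. The genes named are ORE15, the 10 widest rises and falls, up to 4 called genes per list and 5 per order of the genotypes; some others serve as tissue markers. The script was tested on simulated data. Alternatives were other scalings, filters and probe summaries, slide or replicate number as a block, a trend in the spread, the mutant arrays alone, a minimum difference, the authors' table, and leaving out each array. Normexp (offset 50) was planned on mean spot signals; median signals were used. With 1 array in a genotype, that array is assumed to vary like the others.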

Additional observations from a re-analysis of the deposited data

Results flagged for a closer look

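Probes with no matched locus took no part in the comparison, and some were well above background in 1 mutant only. Of the 5446, 57 were well above background on both ore15-1D arrays and on no other array, and 41 on both ore15-2 arrays and on no other array. The same counts were not taken over probes with a locus, so whether these are unusual was not tested. The probes carry no gene name here.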

How the results depend on the processing

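The count of 11279 differing loci (5312 higher, 5967 lower) stayed within 1.5 times under the other scalings, filters, probe summaries, slide as a random block, the replicate block (10083), the mutant arrays alone (added after seeing the data) and a trend in the spread. The replicate numbers did not pair the samples: deviations of same-numbered arrays correlated at -0.03 (ore15-1D and ore15-2), -0.12 (ore15-1D and Col) and 0.14 (ore15-2 and Col), and with the replicate block all 158 named genes kept their call and direction. With slide as a fixed block 0 loci passed in limma, and ORE15 was 10.22 (adjusted p = 0.0534). With a minimum difference of 1, 4302 passed (1406 higher, 2896 lower). Leaving out 1 array gave 4673 to 11298 loci, 1721 to 5179 higher, 2952 to 6119 lower, and 55.1% to 73.2% with Col between, a genotype of 1 array being less easily overlapped by construction. ORE15 gave 9.08 to 11.15 in those fits. Quantile normalization gave 6238 higher and 4984 lower loci, and there were 6160 and 4684 in the authors' table.

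Of the named genes, 5 changed sign in some setting: RBCS1A was 0.017 in the authors' table. DIN10 was 0.042 (quantile), 0.092 (normexp), 1.02 (slide as a fixed block), 0.049 (random block), 0.13 (authors' table) and -0.19 to 0.16 over the fits without 1 array. ELF4 was 0.020 (normexp), 0.054 (authors' table) and -0.38 to 0.047 without 1 array. ASG4 was 0.0075 (authors' table) and -0.50 to 0.18 without 1 array, and AT5G44973 -0.40 (slide as a fixed block) and -0.0076 to 0.20 without 1 array. The floral list's median was -0.46 with no filter, and those of the leaf size regulators, leaf polarity and stomatal lineage lists -0.072, -0.0799 and -0.073 with slide as a fixed block (otherwise 0.114, 0.0375 and 0.172). The polarity median was also -0.111 over the mean of all probes, -0.0142 without ore15-2 replicate 2 and -0.00325 in the authors' table, and the shoot meristem median 0.00574 after quantile normalization (otherwise -0.265). The causes were not tested. Of the 158, 40 lost their call without ore15-1D replicate 1, 37 without ore15-1D replicate 2, 10 without ore15-2 replicate 1 and 18 without ore15-2 replicate 2. Dim probes limit the fold changes of genes undetected in a genotype.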
